A study of Homo sapiens with 48 samples.

Results

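Nucleolar ribosome biogenesis factors are the proteins that transcribe, cut, modify and fold ribosomal RNA and load ribosomal proteins onto it. The factors described here were given as a list of 54 gene symbols. A member counted as measured when at least 1 probe set, a group of probes that reads 1 transcript, carried its symbol and no other. This held for 44 of the 54 members, with 60 probe sets in all, among 11963 genes measured in the series. The remaining 10 (BOP1, DDX18, DKC1, EBNA1BP2, GNL3, LYAR, NOB1, NOP56, NOP58 and PPAN) were not analysed here.

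The cells were K562, an established human chronic myeloid leukaemia line driven by the fused kinase BCR-ABL1, which the small molecule imatinib blocks. The 24 imatinib samples came from K562 cells kept in 1 micromolar imatinib for 24 hours, and the 24 mock samples from K562 cells without the drug. RNA was read on Affymetrix arrays, which hybridise labelled copies of RNA to short probes. Samples fell into 8 sets, A to H, of 3 mock and 3 imatinib samples each, and the labels do not say what the letters stand for. About 8 micrograms of total RNA entered each preparation. For mock RNA, Trizol came before the column kit, and the RNA carried the full amount of spike-in control RNA, while imatinib RNA went through the column kit alone and carried a reduced amount. The drug and the way of purifying RNA therefore cannot be told apart in any set. A keyword of the imatinib samples also calls them mock treated, and groups here follow the titles. No label states whether replicates were grown separately, so each p-value speaks only to the scatter among these samples, and that scatter may be technical.

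In the nucleolus, RNA polymerase I copies ribosomal DNA into a long precursor RNA. Small nucleolar RNPs, which are RNA and protein particles guided by base pairing, then methylate and pseudouridylate it, and the small subunit processome and a series of 60S assembly factors cut and fold it into the parts of both subunits. The output of this pathway follows growth signals and is known to be high in many proliferating tumour cells.

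Values were the deposited log2 levels, from 2.41 to 14.9. Sample means lay between 5.89 and 7.62 and differed by at most 0.05 within a set, so imatinib was compared with mock only inside sets. The median SD of the 3 replicates was 0.06 to 0.15 in the 16 groups over all probe sets and 0.06 to 0.16 over the brightest probe set of each member. Of 9 measured K562 and erythroid marker genes, all 9 lay at or above the median level, and all 9 rose after imatinib, with a median log2 change of 1.04. Of the markers of other cell types, 4 of 5 for T cells, 2 of 3 for B cells, 0 of 5 for monocytes and granulocytes, 3 of 5 for fibroblasts and 1 of 4 for epithelia lay at or above it, and the lists' median log2 changes were 0.09, 0.08, 0.05, 0.10 and 0.01. Of the 5 T cell markers, 2 were called higher and 1 lower in the combined fit, so the list did not move as 1. Its mean level was lower in the imatinib samples in every set, by -0.42 to -0.09 as imatinib minus mock. The mean level of the erythroid markers was 1.25 to 1.52 higher in the imatinib samples in every set, and the part of either list in the results on the nucleolar factors was not tested. In a bulk sample, fewer cells of a type and less RNA per cell cannot be told apart.

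Most of the nucleolar factors fell after imatinib. Of the 44 measured genes, each read by its brightest probe set, 42 fell and 2 rose in the fit over all 8 sets (limma, adjusted p under 0.05 over all 22215 probe sets), and the median log2 change was -0.69, or 62.1% of the mock level. Among all 11963 genes 27.1% were called lower and 41.6% higher, and the median log2 change was 0.05. A fall of at least 2-fold was measured for 9 members, or 20.5%, compared with 2.44% of all genes. A further 21 members fell by between 0.5 and 1 on the log2 scale, and 12 fell by less than 0.5. The members that rose were UBTF, which activates RNA polymerase I at ribosomal DNA, and RCL1, a factor needed for early cuts of the 18S precursor. The brightest probe set was no dimmer than the median probe set for 39 members, of which 37 fell. The share of all genes at that level that were called lower was not counted. The largest adjusted p among the 44 was 4.68e-05 for PNO1 (limma, 24 against 24 samples). When each array was centred on its median, the split of all calls moved from 39.6% lower to 51.7% lower, and the members' counts of 42 and 2 did not change.

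**Figure D1:**
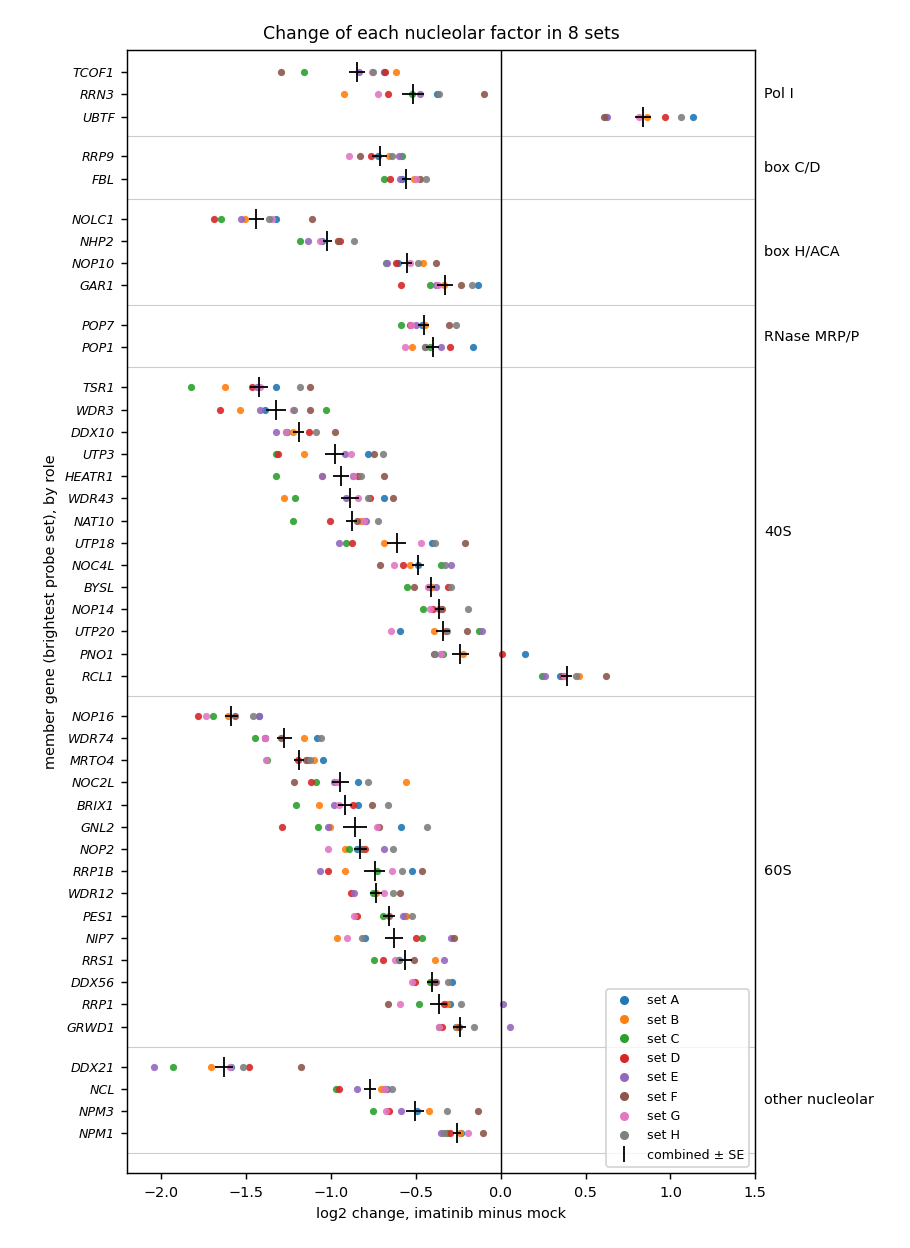
Log2 change (imatinib minus mock, x axis) of the 44 measured members, 1 line per gene grouped by role, with a coloured point for each of the 8 sets and a black mark with bars for the combined change ± SE. Points lie left of 0 for nearly all genes and sets, from -2.04 for DDX21 in set E, and right of 0 in all sets for UBTF and RCL1 alone.

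The stretch of DNA just before the start site is shown for the 4 members with the largest falls among those in the RefSeq promoter table and for both members that rose, to show where copies of a short sequence motif lie. Each is the last 120 bases before the annotated start, 5′ to 3′ on the gene's strand (GRCh38.p14, RefSeq). Capitals mark CGGAAG, or CTTCCG where it lies on the other strand, which is the core bound by ETS family factors such as GABPA.
DDX21, chr10:68956050-68956169, plus strand: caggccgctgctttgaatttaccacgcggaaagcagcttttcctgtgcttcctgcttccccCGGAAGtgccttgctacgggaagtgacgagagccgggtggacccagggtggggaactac
NOP16, chr5:176388599-176388718, minus strand: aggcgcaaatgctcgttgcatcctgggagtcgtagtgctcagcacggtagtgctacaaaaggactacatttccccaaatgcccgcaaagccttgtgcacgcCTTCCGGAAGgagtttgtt
TSR1, chr17:2336458-2336577, minus strand: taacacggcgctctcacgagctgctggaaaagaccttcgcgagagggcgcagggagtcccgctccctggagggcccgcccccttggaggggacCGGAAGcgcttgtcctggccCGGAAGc
WDR3, chr1:117929619-117929738, plus strand: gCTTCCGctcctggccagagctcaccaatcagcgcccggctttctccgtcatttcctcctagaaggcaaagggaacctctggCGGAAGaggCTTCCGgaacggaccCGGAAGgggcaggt
UBTF, chr17:44220883-44221002, minus strand: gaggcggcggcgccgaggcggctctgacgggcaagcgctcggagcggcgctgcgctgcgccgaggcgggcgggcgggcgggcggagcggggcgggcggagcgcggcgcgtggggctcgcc
RCL1, chr9:4792824-4792943, plus strand: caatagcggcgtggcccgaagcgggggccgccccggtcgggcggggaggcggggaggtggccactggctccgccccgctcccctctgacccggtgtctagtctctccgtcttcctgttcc

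All 4 stretches of the genes that fell held the ETS core: 1 copy before DDX21, 2 overlapping copies before NOP16, 2 before TSR1 and 4 before WDR3. Neither stretch of the genes that rose held it, but RCL1 had 1 copy further out, 170 bases before its start. In the 250 bases searched, RCL1 thus held the core and UBTF did not. The contrast with RCL1 therefore depends on the length of the stretches shown. The share of all genes with a copy in stretches of that length was not counted. Among the next largest falls, WDR74 had a copy 14 bases before its start, DDX10 had its only copy 155 bases out, and MRTO4 and NHP2 had none in the 250 bases. Over the full 250 bases before the start, 21 of the 39 members with an entry (53.8%) held at least 1 copy on either strand. The share was 44.9% for 89 other ribosome biogenesis genes, 23.6% for 9563 measured genes with an entry and 16.8% for all 27305 promoters in the table. Of the 33 copies in members, 20 began within 100 bases of the start. Positions were not counted in other promoters, so these 20 have no share to be set against. The median log2 change was -0.71 for the 21 members with a copy and -0.59 for the 18 without. Median GC content was 63.6% in the members and 63.6% in the measured genes. These are matches of letters, with no test and no statement on binding.

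The E-box CACGTG, which reads the same on both strands and is the core bound by MYC with MAX, was searched because MYC is known to drive many of these genes. It was present in 5 of the 39 member promoters (12.8%), compared with 15.7% of the other biogenesis genes, 8.34% of measured genes and 6.49% of all promoters. The copies nearest a start site, with the E-box in capitals, are shown to place them.
NAT10, chr11:34105594-34105628, plus strand: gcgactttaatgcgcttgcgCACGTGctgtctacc
UTP20, chr12:101280075-101280104, plus strand: gcgccgttcttttttccgtcCACGTGaccc
NOP10, chr15:34343137-34343167, minus strand: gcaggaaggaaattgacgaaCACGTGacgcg
UTP18, chr17:51260437-51260482, plus strand: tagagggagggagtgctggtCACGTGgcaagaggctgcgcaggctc
POP7 held the motif 140 bases before its start, and NOP10 held a further copy 170 bases before its own. The median log2 change was -0.55 for the 5 members with an E-box and -0.72 for the 34 without. The TATA box TATAAA, searched on both strands, was present in 1 member promoter (2.56%) and in 7.93% of measured genes.

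Of the factors of RNA polymerase I, 2 fell and 1 rose in the combined fit, in which 27.1% of all genes were called lower and 41.6% higher. UBTF binds along ribosomal DNA and keeps it open for transcription. In set B its log2 level was 7.92, 8.17 and 8.29 in mock and 8.93, 9.01 and 9.02 in imatinib, and in set A it was 6.62, 6.64 and 6.79 in mock and 7.76, 7.82 and 7.88 in imatinib. The groups did not overlap in either set. Measured from the mock mean of its own set, UBTF lay between -0.27 and 0.19 in the 24 mock samples and between 0.52 and 1.23, with a median of 0.86, in the 24 imatinib samples. All imatinib samples were above all mock samples, a pattern shown by no other member and by 4.66% of all genes. The combined log2 change of UBTF was 0.84 ± 0.05 (SE; 1.79-fold; limma adjusted p = 1.75e-21), and UBTF was called higher in all 8 sets, as were 4.61% of genes. Its dimmer probe set rose as well, by 0.64 in the combined fit.

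TCOF1, the treacle protein that holds UBTF and polymerase I at ribosomal DNA, moved the other way. Its log2 level in set B was 9.06, 9.11 and 9.23 in mock and 8.58, 8.54 and 8.42 in imatinib, and in set F 7.63, 7.88 and 8.13 in mock and 6.53, 6.81 and 6.43 in imatinib. Imatinib samples were lower than every mock sample in both sets. The combined log2 change was -0.85 ± 0.05 (SE; limma adjusted p = 5.06e-21), and the fall was called in all 8 sets. RRN3, the initiation factor that brings polymerase I to the promoter, fell by 0.52 on the log2 scale and was called in 5 of 8 sets, with a change of -0.10 in set F (limma adjusted p = 0.814).

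Both measured proteins of box C/D particles, which methylate ribosomal RNA, were called lower in all 8 sets, as were 7.76% of all genes. FBL, the methyltransferase fibrillarin, had narrow replicates: its log2 level in set B was 12.80, 12.80 and 12.79 in mock and 12.29, 12.26 and 12.32 in imatinib, and in set F 11.42, 11.42 and 11.41 against 10.88, 10.92 and 11.02. FBL fell by a modest amount but well outside the replicate spread, with a combined log2 change of -0.56 ± 0.03 (SE; limma adjusted p = 1.18e-24). RRP9, the protein of the U3 particle that starts precursor cutting, had a log2 level of 8.31, 8.64 and 8.6 in mock and 7.99, 7.82 and 7.77 in imatinib in set B. The combined log2 change of RRP9 was -0.71 ± 0.04 (SE; limma adjusted p = 3.31e-19).

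The box H/ACA particles convert uridine to pseudouridine, and all 4 measured members of this group fell, with a median log2 change of -0.79. The share of all genes called lower in the combined fit was 27.1%. NOLC1, the chaperone Nopp140 that gathers these particles in nucleoli and Cajal bodies, fell most. In set B its log2 level was 11.15, 11.04 and 11.07 in mock and 9.50, 9.58 and 9.66 in imatinib, and in set F 9.86, 9.97 and 9.45 against 8.61, 8.49 and 8.85. Over all sets the log2 change of NOLC1 was -1.44 ± 0.04 (SE; 2.71-fold lower; limma adjusted p = 1.34e-31), and its other 2 probe sets gave -1.60 and -1.35. NHP2, a core protein of the particle, was 11.71, 11.68 and 11.62 in mock and 10.77, 10.67 and 10.69 in imatinib in set B, with a combined log2 change of -1.02 ± 0.03 (SE; limma adjusted p = 4.31e-33). NOP10, another core protein, fell by 0.55. GAR1, the fourth core protein, fell least, by 0.33 ± 0.05 (SE) on the log2 scale (limma adjusted p = 1.52e-08). GAR1 had a change below 0 in all 8 sets and was called lower in only 4. Its groups overlapped in set F, where mock samples read 8.93, 9.22 and 9.24 and imatinib samples 8.74, 8.93 and 9.0.

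POP1 and POP7 are proteins shared by RNase MRP, which cuts the precursor between the subunits' RNAs, and RNase P, which trims tRNA. POP7 read 9.65, 9.73 and 9.69 in mock and 9.23, 9.21 and 9.29 in imatinib in set B, and its combined log2 change was -0.45 ± 0.03 (SE; limma adjusted p = 9.83e-17). POP1 fell by 0.40 ± 0.04 (SE; limma adjusted p = 3.44e-12). Each was called lower in 7 of 8 sets.

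Of the 14 measured factors of the small subunit processome and 40S assembly, 13 fell and 1 rose, with a median log2 change of -0.75. Over all genes, 27.1% were called lower and 41.6% higher in the combined fit. TSR1, a GTPase-like factor that keeps the young 40S subunit from binding its partners too early, led the group. Its log2 level in set B was 9.33, 9.35 and 9.34 in mock and 7.60, 7.85 and 7.70 in imatinib, and in set F 7.61, 7.85 and 7.91 against 6.59, 6.64 and 6.76. Over all sets the log2 change of TSR1 was -1.43 ± 0.05 (SE; 2.69-fold lower; limma adjusted p = 2.59e-28). WDR3, a WD repeat protein of the processome, read 9.38, 9.28 and 9.27 in mock and 7.61, 7.89 and 7.82 in imatinib in set B, and fell by 1.32 ± 0.06 (SE) in the combined fit (limma adjusted p = 3.25e-25).

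The other processome proteins filled the range between these and 0. DDX10, an RNA helicase, fell by 1.19, and UTP3, HEATR1, WDR43 and NAT10 fell by 0.98, 0.94, 0.89 and 0.88 on the log2 scale. NAT10 also acetylates cytidines of 18S RNA. UTP18, a further WD repeat protein, fell by 0.61 ± 0.06 (SE; limma adjusted p = 9.37e-14), and NOC4L, BYSL, NOP14 and UTP20 fell by between 0.34 and 0.49.

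RCL1 was the member of the 40S group that rose. In set B its log2 level was 9.61, 9.61 and 9.61 in mock and 10.13, 10.07 and 10.01 in imatinib, and in set F 8.26, 8.31 and 8.23 against 8.80, 8.90 and 8.97. In set C the groups came close, with 8.18, 8.34 and 8.40 in mock and 8.51, 8.75 and 8.38 in imatinib, and 1 imatinib sample below the highest mock sample. RCL1 had a combined log2 change of 0.39 ± 0.03 (SE; 1.31-fold; limma adjusted p = 1.12e-14). It was called higher in 6 of 8 sets, as 8.94% of genes were in at least 6. It missed the threshold in set C (limma adjusted p = 0.113) and set E (limma adjusted p = 0.152), where its change was also above 0.

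PNO1, which partners the nuclease that finishes 18S RNA, gave different answers by probe set and is shown in more detail for that reason, a choice made after its values were seen. The brightest probe set, whose suffix x marks probes that can match other transcripts too, fell by 0.24 ± 0.05 (SE; limma adjusted p = 4.68e-05). In set B it read 9.6, 9.67 and 9.69 in mock and 9.43, 9.45 and 9.42 in imatinib, and in sets A and D its log2 change was 0.14 and 0.01, neither past the threshold. The other probe set read 9.79, 9.91 and 9.68 in mock and 8.14, 8.17 and 8.53 in imatinib in set B and fell by 1.47 in the combined fit. The same suffix was carried by 4 of the members' 60 probe sets, and its part in the differences was not tested.

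All 15 measured 60S assembly factors fell, with a median log2 change of -0.74, and 9 of them were called lower in every set. Among all genes, 27.1% were called lower in the combined fit and 7.76% in all 8 sets. NOP16, a nucleolar protein of early 60S particles, had the second largest fall of all members. In set B its log2 level was 10.17, 10.26 and 10.23 in mock and 8.57, 8.59 and 8.69 in imatinib, and in set F 9.33, 9.13 and 9.28 against 7.70, 7.49 and 7.85. Measured from its set's mock mean, it lay between -0.19 and 0.16 in mock and between -1.81 and -1.23, with a median of -1.64, in imatinib. The combined log2 change of NOP16 was -1.59 ± 0.04 (SE; 3.0-fold lower; limma adjusted p = 9.08e-37), and by set it ran from -1.78 in D to -1.42 in A.

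WDR74, which works with the AAA ATPase NVL in 60S maturation, read 9.30, 9.20 and 9.32 in mock and 8.16, 8.14 and 8.04 in imatinib in set B. It fell by 1.28 ± 0.04 (SE) in the combined fit (limma adjusted p = 9.46e-30), and its other probe set fell by 0.44. MRTO4, which holds the place of the ribosomal stalk protein on the precursor, fell by 1.19, NOC2L by 0.95 and BRIX1 by 0.92. GNL2, a GTPase that acts before export, fell by 0.86, and NOP2, a methyltransferase of 28S RNA, by 0.83. PES1 and WDR12, both subunits of the PeBoW complex, fell by 0.66 and 0.74.

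RRP1B, a relative of RRP1, fell by 0.74 by its brightest probe set. Smaller falls were measured for NIP7 (0.63), RRS1 (0.56), DDX56 (0.40) and RRP1 (0.36). GRWD1, a WD repeat protein that chaperones a 60S ribosomal protein, changed least of the group. In set E its log2 level was 7.69, 7.66 and 7.67 in mock and 7.57, 7.99 and 7.63 in imatinib, so 1 imatinib sample lay above every mock sample and the others below. The combined log2 change of GRWD1 was -0.24 ± 0.04 (SE; limma adjusted p = 1.12e-07), with 4 of 8 sets called lower and 23 of 24 imatinib samples below their set's mock mean.

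DDX21, an RNA helicase that couples polymerase I transcription to precursor processing, had the largest fall of all 44 members. In set E its log2 level was 9.79, 9.69 and 9.55 in mock and 7.78, 7.53 and 7.59 in imatinib, in set B 11.18, 11.04 and 11.19 against 9.37, 9.50 and 9.42, and in set F 10.13, 10.59 and 10.26 against 9.06, 8.91 and 9.47. No imatinib sample reached a mock sample of its set. DDX21 had a combined log2 change of -1.63 ± 0.05 (SE; 3.10-fold lower; limma adjusted p = 2.09e-30). The helicase was represented by 1 probe set.

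The other measured members of the group with DDX21, which are NCL, NPM1 and NPM3, fell less than DDX21. NCL, nucleolin, which binds precursor RNA and ribosomal DNA chromatin, read 11.82, 11.83 and 11.86 in mock and 11.05, 11.18 and 11.16 in imatinib in set B, and fell by 0.77 ± 0.03 (SE; limma adjusted p = 1.28e-25), in all 8 sets. NPM1, nucleophosmin, which forms the outer nucleolar layer, read 13.12, 13.03 and 13.06 in mock and 12.85, 12.84 and 12.79 in imatinib in set B. In set F the NPM1 groups overlapped, with 11.74, 11.59 and 11.62 in mock and 11.51, 11.51 and 11.61 in imatinib. NPM1 fell by 0.26 ± 0.03 (SE; 1.20-fold; limma adjusted p = 8.53e-13) in the combined fit by its brightest probe set, which carries the suffix x. Its other probe sets gave -0.29 and -0.18. NPM3, a small relative of nucleophosmin, fell by 0.51.

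**Figure D2:**
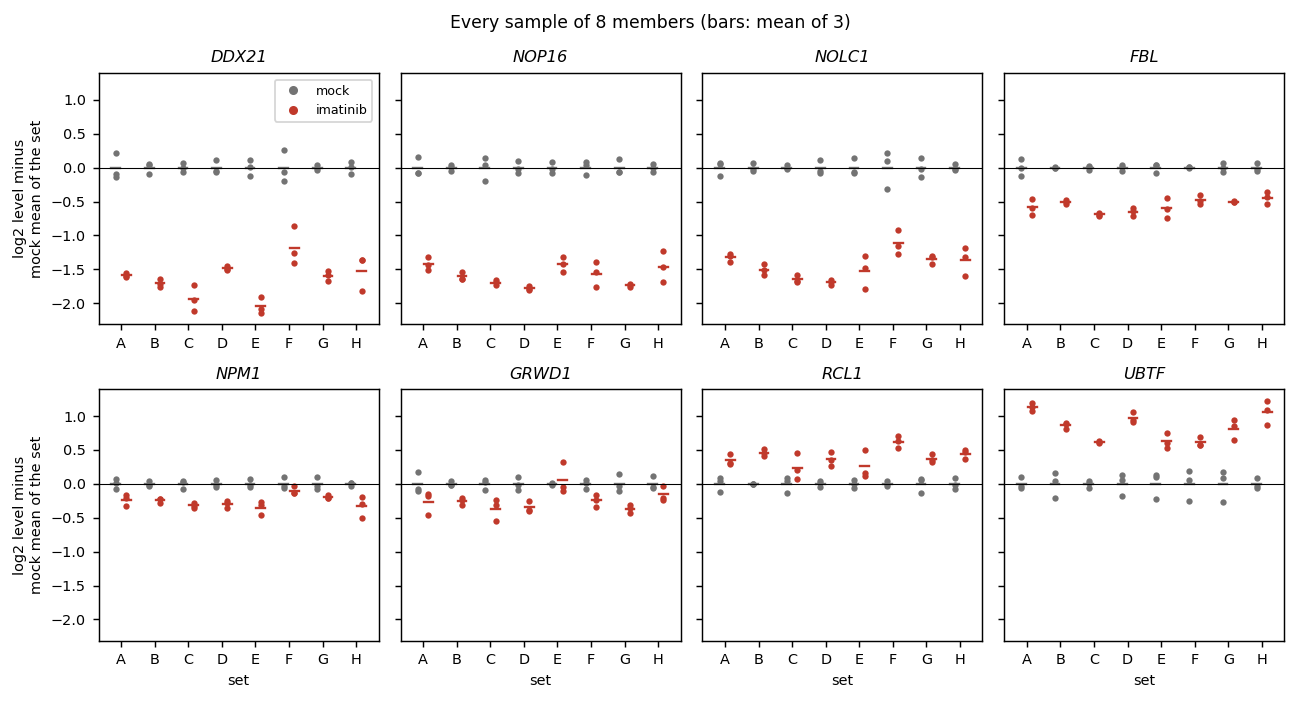
Log2 level of every sample minus the mock mean of its own set (y axis) for 8 members, with sets A to H on the x axis, mock samples in grey, imatinib samples in red and a bar for each mean of 3. The red points of DDX21 lie between -2.14 and -0.86 and those of UBTF between 0.52 and 1.23, apart from the grey points in every set, while those of GRWD1 reach 0.32 in set E.

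The members that fell did so in most sets taken alone. With 3 against 3 samples, set B had the most members that fell, 42 of 44, compared with 21.3% of all genes (limma, adjusted p under 0.05). The count was 41 in set C (21.4% of all genes), 41 in set D (20.3%) and 41 in set G (16.9%). It was 37 in set A (15.9%), 36 in set E (13.7%), 36 in set H (12.7%) and 29 in set F (10.7%). Set F had the lowest share among all genes as well as among the members. The members' median log2 change ran from -0.77 in set D to -0.59 in set H, with an SD of 0.06 over the 8 sets. How far these all-gene shares depend on single samples was not counted. The number of probe sets called, lower and higher together, did depend on them. With all samples it was 8654 in set C and 4307 in set E. Dropping each sample in turn gave 5264 to 6183 in set A, 7937 to 10860 in B, 5324 to 9681 in C and 6436 to 9197 in D. The same step gave 2995 to 7371 in E, 2622 to 3474 in F, 4493 to 7103 in G and 4162 to 5381 in H. UBTF was called higher in each set, alone in sets C (20.8% of all genes called higher) and E (8.03%) and with RCL1 in sets A (14.7%), B (30.1%), D (23.8%), F (8.12%), G (12.7%) and H (13.4%).

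**Figure D3:**
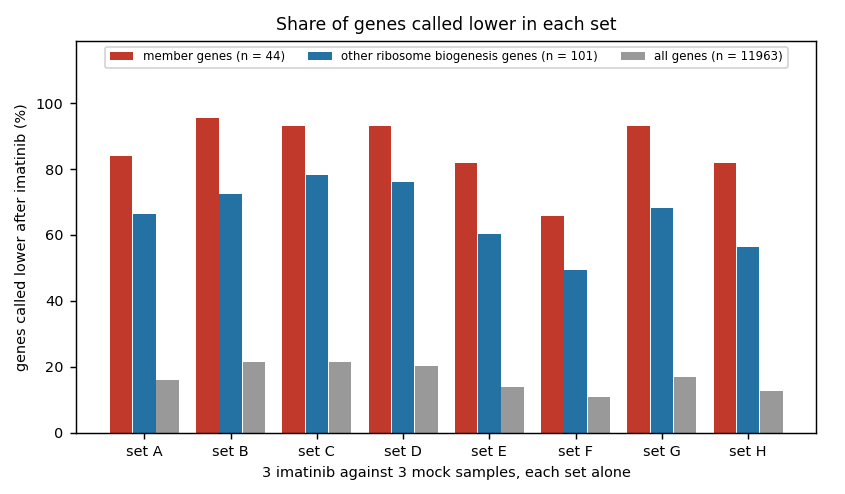
Percentage of genes called lower after imatinib (y axis, from 0) in each set alone (x axis; 3 imatinib against 3 mock samples, limma adjusted p under 0.05), with bars for the 44 member genes, 101 other ribosome biogenesis genes and 11963 genes measured. The member bars are the tallest in every set, while those of all genes run from 10.7% to 21.4%.

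Across sets, 23 members were called lower in all 8, compared with 7.76% of all genes, and 40 in at least 5, compared with 14.8%. The members called lower in all 8 sets were DDX21, NOP16, NOLC1, TSR1, WDR3, WDR74, DDX10, MRTO4, NHP2, UTP3, NOC2L, HEATR1, BRIX1, NAT10, TCOF1, NOP2, NCL, WDR12, RRP9, PES1, RRS1, FBL and BYSL. The log2 change was below 0 in all 8 sets for 39 members and 20.6% of genes, the exceptions being UBTF, RCL1, GRWD1, RRP1 and PNO1. For 31 members, and 9.91% of genes, every imatinib sample lay below every mock sample of its set in all 8 sets. When all samples were measured from their set's mock mean, all 24 imatinib samples lay below all 24 mock samples for 25 members and for 7.97% of genes.

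The size of the fall was not the same in all sets for a few members. Testing the interaction of set and treatment in 1 model over all 48 samples gave 6 of the 44 genes with an adjusted p under 0.05 (limma), compared with 7.03% of all genes, and 11 of the 60 member probe sets, compared with 7.2% of all probe sets. Without set C, 3 member genes and 7 member probe sets passed, while the number over all 22215 probe sets went from 1599 to 707. NIP7, a 60S factor that binds precursor RNA, read 7.54, 7.23 and 7.21 in mock and 6.26, 6.37 and 6.45 in imatinib in set B, a log2 change of -0.97. In set F, where the probe set was dim, it read 4.16, 4.25 and 4.12 in mock and 3.83, 3.97 and 3.90 in imatinib, a log2 change of -0.28 (limma adjusted p = 0.0521). In set E the change was -0.30 (limma adjusted p = 0.0603), from mock values of 3.81, 3.74 and 3.61, so the smallest falls of NIP7 were measured in sets in which its level was low.

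UTP18 read 7.97, 8.12 and 8.03 in mock and 7.43, 6.85 and 6.99 in imatinib in set E, a log2 change of -0.95. In set F its groups overlapped, with 9.27, 9.36 and 8.74 in mock and 8.86, 8.81 and 9.08 in imatinib, and the change was -0.21 (limma adjusted p = 0.534). For DDX21 the change ran from -2.04 in set E to -1.18 in set F, and for TCOF1 from -1.29 in set F to -0.62 in set B, so set F held the smallest change of DDX21, UTP18 and NIP7 and the largest of TCOF1.

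Several probe sets read 11 of the members, and for 9 of these all probe sets passed the test in the same direction. All 3 probe sets of NOLC1, all 3 of NPM1, both of HEATR1 (-0.94 and -0.89), both of TCOF1 (-0.85 and -0.97) and both of UBTF gave changes of like sign. Some differed in size. The probe sets of TSR1 gave -1.43, -1.19 and -0.10, the last with the suffix x, those of WDR74 gave -1.28 and -0.44, those of UTP18 -0.61 and -0.20, and those of PNO1 -0.24 and -1.47. NOP16 differed in sign. Of its 4 probe sets, 2 fell, by 1.59 and 1.28, and 2 rose slightly, by 0.10 and 0.10 (limma adjusted p = 0.00836 and 0.0048), the second of these with the suffix x. The call on each of the 2 that rose was lost under another scaling of the arrays. In set B, 1 of these read 6.67, 6.55 and 6.5 in mock and 6.84, 6.74 and 6.53 in imatinib, with overlapping groups. The call on the other was also lost without set D (limma adjusted p = 0.0572), and that on the third probe set of TSR1 without set C (limma adjusted p = 0.0612). For RRP1B the second probe set gave -0.09 and missed the threshold (limma adjusted p = 0.104), which it passed without set B, D or E, without mock replicate 1 of set D and under median centring. Over all 60 member probe sets 54 were called lower and 5 higher, compared with 25.8% lower and 39.3% higher among all 22215 probe sets.

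**Figure D4:**
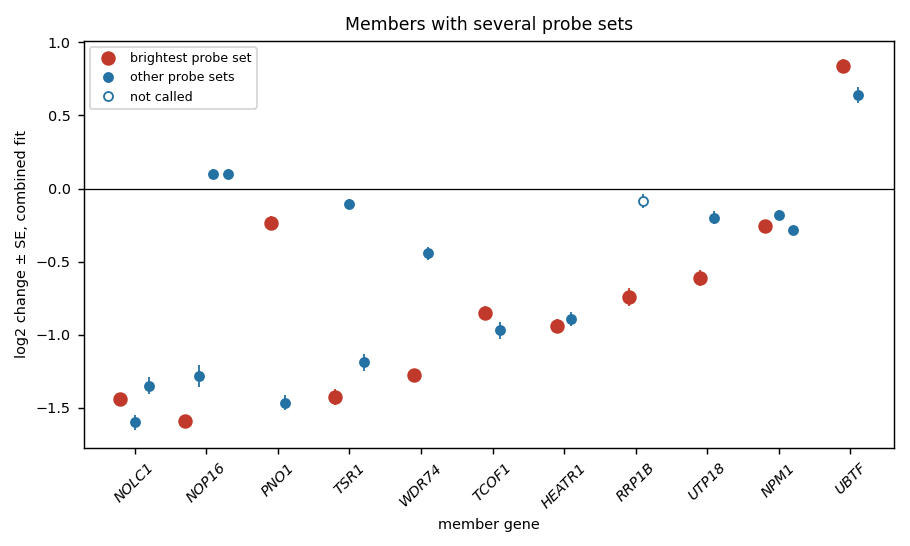
Combined log2 change ± SE (y axis) of every probe set of the 11 members that have more than 1 (x axis), with the brightest in red, the others in blue and open points for probe sets that missed the threshold. NOLC1 and HEATR1 lie close together, while PNO1 (-0.24 and -1.47) and NOP16 (-1.59 to 0.10) spread widely.

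Other genes of ribosome biogenesis, 101 of 127 listed being measured, moved the same way with a smaller median. In the combined fit 86 fell and 5 rose (limma, adjusted p under 0.05), and the median log2 change was -0.50, compared with -0.69 for the members. This list holds further processome, exosome, 60S and export factors and shares no gene with the members. Within single sets, between 50 (set F) and 79 (set C) of the 101 were called lower, compared with 10.7% and 21.4% of all genes in these sets. The difference between both medians was not tested, because genes are not replicates.

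**Figure D5:**
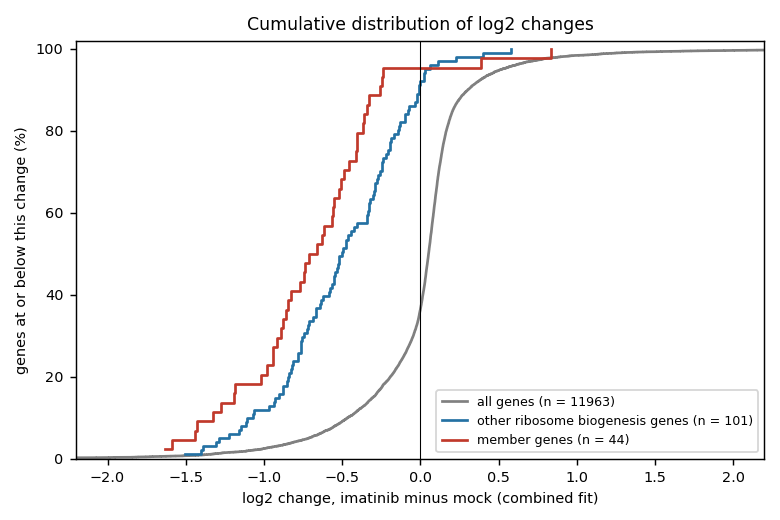
Cumulative share of genes (y axis, percent) at or below a given combined log2 change (x axis, imatinib minus mock) for the 44 members, the 101 other biogenesis genes and all 11963 genes. The members' curve crosses its midpoint at -0.69, the other biogenesis genes at -0.50 and all genes at 0.05.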

How the data were processed

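The 48 arrays were analysed as 16 groups of 3. The authors deposited log2 values per probe set; the scale was read from the values, and the sources used here do not name the background correction, probe summary or normalization. Of 22283 probe sets 68 controls were left out, and 19065 of the 22215 tested carried 1 symbol in the platform annotation, 1043 several and 2107 none. Symbols were updated through RefSeq (GRCh38.p14), where 19053 matched. The probe set with the highest mean over the 48 samples stood for a gene. All 22215 probe sets were fitted with limma 3.58.1 in R 4.3.3: each set alone, all sets with set as a block, and all sets with set-by-treatment terms, with Benjamini-Hochberg adjustment and a threshold of 0.05. Scripts were tested on simulated data. Members, lists and tests were chosen with earlier results of these data known. Full statistics were given for the 2 largest and the smallest change of each role (1 and 1 in roles of under 4), genes that rose or whose probe sets disagreed in sign, and the 4 that differed most between sets. The replicate numbers were not used as pairs. Alternatives tried were median centring, quantile normalization, an intensity trend, a filter on dim probe sets, the mean of a gene's probe sets, a threshold of 0.01, a replicate block and leaving out each sample or set. Promoter motifs were counted in Python 3.11.15, and plots drawn with matplotlib 3.10.9. The number of arrays limits the precision.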

Additional observations from a re-analysis of the deposited data

Results flagged for a closer look

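The change after imatinib differed between sets for 11 of the members' 60 probe sets, by the test of the set-by-treatment terms (limma, adjusted over all 22215 probe sets, 48 samples). It differed for 7.2% of all probe sets. NOLC1 had the smallest p by 1 of its dimmer probe sets (limma adjusted p = 0.00135), which changed by -1.82 in set C and -0.82 in set E. Both probe sets of TCOF1 differed (limma adjusted p = 0.00175 and 0.00714), the first from -1.39 in set G to -0.43 in set B and the second from -1.29 in set F to -0.62 in set B. NIP7 (limma adjusted p = 0.00248) fell most in set B, UTP18 (limma adjusted p = 0.00766) and DDX21 (limma adjusted p = 0.00914) in set E, and all 3 changed least in set F. The dimmer probe set of UBTF (limma adjusted p = 0.0071) rose by 1.06 in set H and changed by 0.18 in set F, where it missed the threshold. The dimmer probe set of WDR74 (limma adjusted p = 0.0165) changed by -0.73 in set G and -0.02 in set C, and UTP20 (limma adjusted p = 0.0183) by -0.65 in set G and -0.11 in set E. NAT10 (limma adjusted p = 0.0273) changed by -1.22 in set C and -0.73 in set H, and a dimmer probe set of TSR1 (limma adjusted p = 0.0331) by -1.53 in set B and -0.69 in set F. Set F stood at the small end for 5 of these probe sets and at the large end for 1. The sets also differ in mean level, and the part of that in these differences was not tested.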

How the results depend on the processing

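The combined counts of 42 members lower and 2 higher were the same under median centring, quantile normalization, an intensity trend, the replicate block and with each set or sample left out, and the combined median ran from -0.695 to -0.673 without single samples. The replicate block gave 42 members lower in the combined fit and 33 in set E, 30 in set F and 40 in set G, while mock and imatinib samples of a set that share a number did not deviate together (24 pairs, median r 0.016, range -0.52 to 0.49) and share only a number. At a threshold of 0.01 the members called lower were 27 in set E, 23 in F and 28 in H. Over all probe sets, calls in either direction went from 4307 to 2723 in E and from 3660 to 2134 in F. The share of all genes called lower was not counted at this threshold, with the block or with samples left out. Leaving out 1 sample at a time gave 35 to 38 members lower in set A, 42 in B, 38 to 41 in C, 40 to 41 in D, 27 to 37 in E, 25 to 29 in F, 38 to 41 in G and 31 to 36 in H, and medians from -0.681 to -0.599 in A, -0.648 to -0.571 in F and -0.610 to -0.504 in H. With 1 sample left out, calls over all probe sets in either direction ran from 2995 to 7371 in E and from 2622 to 3474 in F. Member probe sets that differed between sets numbered 7 at a threshold of 0.01 and 7 without set C, and member genes 3 without set C. Over all 22215 probe sets the number went from 1599 to 574 at 0.01 and to 707 without set C. The median of all members became -0.75 in set B and -0.84 in D under centring, -0.59 in B, -0.59 in C and -0.61 in E under quantile normalization, and -0.61 in B and -0.60 in E by the mean of probe sets. PNO1 turned from 0.01 to -0.059 in set D under centring, to -0.84 in D and -0.77 in A by the mean of probe sets, and with 1 sample left out to -0.12 and -0.027 in D and -0.083 in A. RRP1 in set E turned from 0.01 to -0.035 under centring and to -0.13 and -0.092 with 1 sample left out, and GRWD1 in set E from 0.05 to -0.079. NPM3 in set F turned from -0.13 to 0.0021 and 0.00845, and RRN3 in set F from -0.10 to 0.019 and 0.023. None of the values as reported had passed the threshold, and of the turned ones only those by the mean of PNO1's probe sets did, which average in its lower probe set; the cause of the others was not tested. Both dim probe sets of NOP16 lost their call under quantile normalization (limma adjusted p = 0.139 and 0.069). The 3 arrays a group limit the precision.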
